A study of Mus musculus with 19 samples.

Results

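The 10 genes Cldn5, Slc2a1, Mfsd2a, Abcb1a, Slco1a4, Pecam1, Flt1, Tek, Ly6c1 and Vwf mark the endothelium of brain vessels and the barrier it forms. They were taken by name from 48709 genes counted in hippocampal CA1 tissue of mice. All 10 had a row in the counts and all 10 were among the 19286 genes that were tested. The rule that names them uses no measured value, but they were chosen with earlier results of these data known. The libraries came from male C57B/6J mice in 3 groups, trained in a water maze. Young mice of 3 months received lipid nanoparticles with scrambled control oligonucleotides in the dorsal hippocampus (young, n = 6), as did mice of 16.5 months (old control, n = 6). Further mice of 16.5 months received nanoparticles loaded with inhibitors of 3 microRNAs (old anti-miR-mix, n = 7). Control libraries of either age carry the name of the inhibitor mix in their titles, and the groups are those of the sample descriptions and of the study's methods. All groups carried an injected hippocampus, and no uninjected group was among them. No young group with the inhibitors was analysed here, so the inhibitors were compared with control oligonucleotides at the old age only. The comparisons asked how age changed hippocampal transcripts and how the inhibitors changed them in old mice.

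Brain endothelial cells are joined by tight junctions, carry out little vesicular transport and move nutrients, lipids and drugs through dedicated transporters. These properties make up the blood-brain barrier, which is maintained by Wnt and beta-catenin signalling and by contact with pericytes and astrocytes. Endothelial cells are a minority of the cells of CA1, a neuron-rich tissue, and the members are read here against a large background of neuronal and glial RNA.

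The inhibitors were directed at the following mature mouse microRNAs, shown because a member transcript that is paired by them would be a direct candidate for a change under the treatment. The sequences are those of RefSeq (GRCm38.p6), 5′ to 3′, with the seed (bases 2 to 8) in capitals. The 3 seeds differed from each other. The mature miR-148a-3p lies at chr6:51269829-51269850 on the minus strand and miR-146a-5p at chr11:43374435-43374456 on the minus strand. The mature miR-181a-5p is made from the plus strand at chr1:137966468-137966490 and at chr2:38852741-38852763.
miR-148a-3p: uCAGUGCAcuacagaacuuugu
miR-181a-5p: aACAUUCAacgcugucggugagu
miR-146a-5p: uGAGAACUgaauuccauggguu

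The 7-base complements of the seeds are TGCACTG for miR-148a-3p, TGAATGT for miR-181a-5p and AGTTCTC for miR-146a-5p. They were searched on the sense strand of the longest annotated 3′ untranslated region of each member (389 to 3971 bases; GENCODE M21, GRCm38). Such a match was found in 4 of 10 members, whereas 35.0% of the 15351 tested genes with an annotated region held at least 1. The complement of the miR-148a-3p seed occurred once each in Slc2a1, Mfsd2a and Flt1, and 14.9% of all tested genes held it. The complement of the miR-181a-5p seed occurred once in Abcb1a, against 18.1% of all tested genes. The complement of the miR-146a-5p seed was in none of the 10 regions, against 12.4% of all tested genes. The matches are printed below in transcript orientation with their 11 neighbouring bases on either side and the match in capitals, because the treatment values of these 4 genes can be read beside them. The match in Slc2a1 lies at chr4:119137093-119137099, in Mfsd2a at chr4:122947155-122947161, in Flt1 at chr5:147636253-147636259 and in Abcb1a at chr5:8747804-8747810. Such a match is a description of the letters and does not show binding.
Slc2a1, miR-148a-3p: ctagtctcctgTGCACTGagggccacaca
Mfsd2a, miR-148a-3p: ctctttgccctTGCACTGagcagctgttc
Flt1, miR-148a-3p: tagaaatgcagTGCACTGggtctgagttt
Abcb1a, miR-181a-5p: agggttaaaagTGAATGTttgataatata

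Library depth ranged from 26653511 to 38908947 counted reads, and the counts of members ranged from 307 reads (Tek) to 3829 reads (Slc2a1). CA1 neurons were present in every library, with 4923 to 10886 reads of the CA1 marker Wfs1 and a sum of 10 neuronal markers between 10200 and 12100 CPM (counts scaled to library size). Wfs1 was lower in old anti-miR-mix than in young libraries (log2 fold change −0.36 ± 0.10 SE; edgeR adjusted p = 0.0366). Its presence therefore does not show that the groups held the same share of CA1 neurons. The deposited log2 table carries a whole number from 1 to 4 for each library, whose meaning is not given in the sources used here and which is called processing group below. No old control library was in processing group 3, which consisted of 3 old anti-miR-mix and 2 young libraries. Processing groups 1 and 2 held 1 young library each, and groups 1 and 4 held 1 old anti-miR-mix library each. Differences within processing groups therefore rest on few libraries. Old control replicates 5 and 6 differed less from each other than any other pair of the same group (chi-square per degree of freedom 2.18, next lowest 6.1). That was still more than sampling noise, which does not show whether the 2 libraries came from separate animals. They were kept as separate libraries and also summed as an alternative. The labels do not say whether a library came from a single animal, so p-values measure the spread between these libraries.

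On the scale of reads per library size and length of all annotated exons (RPKM), Slc2a1 was the highest member in all 3 groups and Vwf the lowest. That length joins the exons of every annotated transcript of a gene (16064 bases for Vwf), so the order of genes depends on it. Without the length, mean log2 CPM in young mice was 4.29 for Vwf and 4.01 for Pecam1. In young mice the geometric means were 23.5 RPKM for Slc2a1, 11.01 for Cldn5, 9.66 for Ly6c1, 8.78 for Slco1a4 and 8.53 for Mfsd2a. They were followed by Abcb1a at 5.00, Flt1 at 4.47, Tek at 3.08, Pecam1 at 2.58 and Vwf at 1.21 RPKM. In young libraries Cldn5, Ly6c1, Slco1a4 and Mfsd2a each overlapped their neighbour in this order, as did Abcb1a and Flt1, and the other neighbours did not overlap. The order was the same in old control mice, where Tek and Pecam1 overlapped and Slco1a4 and Mfsd2a no longer did. In old anti-miR-mix mice Pecam1 (2.85 RPKM) stood above Tek (2.78 RPKM), with overlapping libraries.

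At most 1 of 10 members passed the threshold in a comparison, which does not show that the others were level. Old control and young libraries differed past the threshold (edgeR quasi-likelihood test, adjusted p under 0.05 over all tested genes) in 1 of 10 members, Mfsd2a, which was lower in old mice. Over all tested genes 2.67% passed in this comparison. Old anti-miR-mix and old control libraries differed past the threshold in 0 of 10 members, with 0.669% of all tested genes passing. DESeq2 likewise called 0 members there, and at an unadjusted p under 0.05 there were 3 (Ly6c1, Mfsd2a and Flt1), against 10.5% of all tested genes. Old anti-miR-mix and young libraries differed past the threshold in 1 of 10 members, Vwf, which was higher in old anti-miR-mix mice, against 6.2% of all tested genes. At an unadjusted p under 0.05, 3 members were lower with age (Mfsd2a, Slco1a4 and Slc2a1; 18.1% of all genes). In old anti-miR-mix against young, Vwf and Pecam1 were higher and Mfsd2a and Tek lower at that level (19.6% of all genes). The comparisons share groups, so their values for a member are not independent.

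The median log2 fold change of the 10 members was −0.06 for old control against young, 0.05 for old anti-miR-mix against old control and −0.01 for old anti-miR-mix against young. The medians of all tested genes lay between 0.00 and 0.01 in the 3 comparisons. Without regard to sign, the median size of the member changes was 0.111, 0.092 and 0.111 in the same order. For all tested genes it was 0.089, 0.067 and 0.084. Of the members, 4 were above 0 with age and 8 with the inhibitors, against 52.2% and 50.2% of all tested genes. Of these 8, Cldn5 was below 0 in 3 of 3 processing groups (−0.14 to −0.04), Slco1a4 and Pecam1 in 2 of 3 each, and Abcb1a and Vwf in 1 of 3 each. The summed level of the members was 302 to 347 CPM in young, 300 to 332 in old control and 293 to 367 in old anti-miR-mix libraries, and these ranges overlapped. In tissue RNA, fewer endothelial cells and less RNA per cell cannot be told apart.

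**Figure D1:**
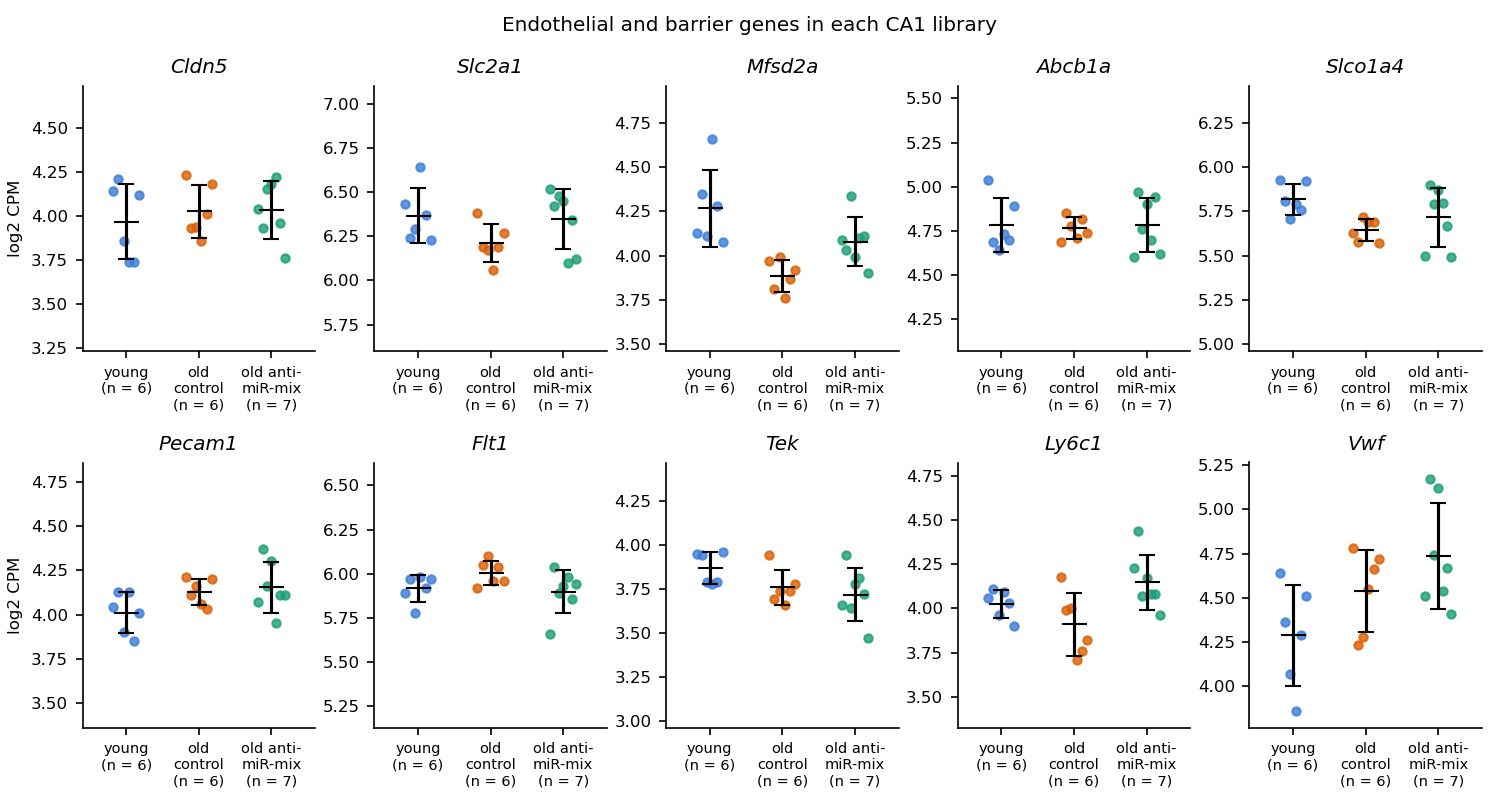
The 10 members in every library, as log2 CPM (y axis; each panel spans the same height) for young (n = 6), old control (n = 6) and old anti-miR-mix mice (n = 7); points are libraries, black bars the mean ± SD. Mfsd2a is the member whose old control libraries (3.76 to 3.99) all lie under the young libraries (4.08 to 4.66), and Vwf has the widest spread within groups.

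Mfsd2a, a lysolipid transporter of brain endothelium that carries docosahexaenoic acid and is needed for low vesicular transport, was the only member called with age. It is encoded at chr4:122946850-122961188 on the minus strand. Young libraries ranged from 4.08 to 4.66 log2 CPM with a median of 4.20, old control libraries from 3.76 to 3.99 with a median of 3.89, and old anti-miR-mix libraries from 3.90 to 4.34 with a median of 4.09. The young and old control groups did not overlap, which held for 2.54% of all tested genes, and the old anti-miR-mix libraries overlapped with both. Old control mice had 0.759 times the young level (log2 fold change −0.40 ± 0.09 SE; edgeR adjusted p = 0.0188). The call was kept in each of 12 fits that left out 1 library, with adjusted p between 0.0131 and 0.0426. With processing group as a factor the log2 fold change was −0.34 and the adjusted p 0.0628, and with old control replicates 5 and 6 also summed it was 0.113. Within processing groups Mfsd2a was lower in old control than in young libraries in 3 of 3 (log2 differences of −0.24, −0.47 and −0.28). Processing groups 1 and 2 each hold 1 young library, which alone sets the young level there.

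Among old mice Mfsd2a was 1.15 times higher with the inhibitors than without (log2 fold change 0.20 ± 0.09 SE), which did not pass (edgeR adjusted p = 0.398). This difference was above 0 in 3 of 3 processing groups (0.09 to 0.22), with 1 old anti-miR-mix library each in groups 1 and 4. Its size with processing group as a factor was 0.13. Old anti-miR-mix mice had 0.872 times the young level, which did not pass either (edgeR adjusted p = 0.185). Set against the mean of 28 other pan-endothelial genes in the same library, the Mfsd2a difference between old control and young mice was −0.35, beside −0.40 measured without that reference. On this scale the groups overlapped (0.55 to 0.78 in old control and 0.72 to 1.38 in young libraries). This reference was added after the values were seen and is given without a test.

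Slc2a1, the glucose transporter GLUT1 of barrier endothelium and also of astrocytes, ranged from 6.23 to 6.64 log2 CPM in young, 6.06 to 6.38 in old control and 6.10 to 6.52 in old anti-miR-mix libraries. The groups overlapped in every comparison. The log2 fold change was −0.16 ± 0.08 SE with age (edgeR adjusted p = 0.269) and 0.14 ± 0.08 SE with the inhibitors (edgeR adjusted p = 0.531), so neither passed. The young replicate 4 library was the highest for both Slc2a1 (6.64) and Mfsd2a (4.66). Without it the Slc2a1 difference with age was −0.10, and Mfsd2a was still called.

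Slco1a4, an organic anion transporter of brain endothelium, was measured at 5.71 to 5.93 log2 CPM in young, 5.57 to 5.72 in old control and 5.49 to 5.90 in old anti-miR-mix libraries. Old control and young libraries overlapped by a narrow margin. The log2 fold change with age was −0.17 ± 0.06 SE and did not pass (edgeR adjusted p = 0.151), although it did when the old control and young groups were fitted alone (adjusted p = 0.0389). Within processing groups it was −0.33 to −0.11 in 3 of 3. With the inhibitors the log2 fold change was 0.08 ± 0.06 SE (edgeR adjusted p = 0.709).

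Abcb1a, which encodes the efflux pump P-glycoprotein, ranged from 4.64 to 5.04 log2 CPM in young libraries, from 4.69 to 4.85 in old control and from 4.60 to 4.97 in old anti-miR-mix libraries, and the groups overlapped throughout. Its log2 fold changes were −0.02 ± 0.07 SE with age and 0.03 ± 0.07 SE with the inhibitors (edgeR adjusted p = 0.907 and 0.938). Cldn5, the main claudin of endothelial tight junctions, also overlapped in all comparisons, with means of 3.97 ± 0.21 log2 CPM (SD, n = 6) in young, 4.03 ± 0.15 (n = 6) in old control and 4.04 ± 0.16 (n = 7) in old anti-miR-mix mice. Its log2 fold changes were 0.06 ± 0.09 SE with age and 0.01 ± 0.09 SE with the inhibitors. For both genes a log2 fold change of −0.40, the value of Mfsd2a with age, lay more than 2 SE from the estimate with age.

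Pecam1, an adhesion molecule of the junctions between endothelial cells, ranged from 3.85 to 4.13 log2 CPM in young, 4.03 to 4.21 in old control and 3.95 to 4.37 in old anti-miR-mix libraries. The old groups had the higher medians, and the libraries of all groups overlapped. The log2 fold change was 0.12 ± 0.07 SE with age (edgeR adjusted p = 0.374) and 0.15 ± 0.06 SE for old anti-miR-mix against young (edgeR adjusted p = 0.204). Neither passed.

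Flt1 and Tek are receptor tyrosine kinases, for vascular endothelial growth factor and for the angiopoietins. Flt1 was measured at 5.78 to 5.98 log2 CPM in young, 5.92 to 6.10 in old control and 5.66 to 6.04 in old anti-miR-mix libraries. Its log2 fold change with the inhibitors was −0.11 ± 0.05 SE (edgeR adjusted p = 0.458), the lowest of the 10 members in that comparison, and did not pass. Tek ranged from 3.78 to 3.96 log2 CPM in young, 3.66 to 3.94 in old control and 3.47 to 3.94 in old anti-miR-mix libraries. Its log2 fold change for old anti-miR-mix against young was −0.15 ± 0.07 SE (edgeR adjusted p = 0.219). Of the 4 members with a seed complement, Slc2a1, Mfsd2a and Abcb1a were above 0 with the inhibitors and Flt1 was below 0. None passed, and Abcb1a was below 0 in 2 of 13 fits without 1 library.

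Ly6c1, a glycosyl-phosphatidylinositol-anchored surface protein of brain endothelium, had the largest difference of the 10 members between the old groups. Its libraries ranged from 3.90 to 4.11 log2 CPM in young, from 3.71 to 4.18 in old control with a median of 3.91, and from 3.96 to 4.44 in old anti-miR-mix mice with a median of 4.08. Old anti-miR-mix and old control libraries overlapped, and 0.498% of all tested genes had groups that did not. The level was 1.18 times higher with the inhibitors (log2 fold change 0.23 ± 0.08 SE; edgeR adjusted p = 0.231), which did not pass. The difference was above 0 in 3 of 3 processing groups (0.15 to 0.34), with 1 old anti-miR-mix library each in groups 1 and 4.

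The Ly6c1 counts are uncertain because 32.8% of its 50-base stretches, the length of a read, also occur in transcripts of Ly6c2, Ly6a or Ly6i, and how such reads were counted is not stated. Ly6c2, which shares 21.5%, held 1 to 59 reads a library. It ranged from 2 to 9 reads in old control and 2 to 59 in old anti-miR-mix libraries (log2 fold change 2.06 ± 0.67 SE; edgeR adjusted p = 0.217), and it is known as a marker of circulating monocytes. With processing group as a factor that value was 1.17. Ly6a, another endothelial member of the family, had a log2 fold change of 0.21 ± 0.11 SE in the same comparison. Ly6e passed in old anti-miR-mix against young (0.17 ± 0.05 SE; edgeR adjusted p = 0.0432), in 4 of 13 fits without 1 library.

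Vwf, the clotting glycoprotein that endothelial cells store and release, was the most variable member. Young libraries ranged from 3.86 to 4.64 log2 CPM with a median of 4.32, old control libraries from 4.23 to 4.78 with a median of 4.61, and old anti-miR-mix libraries from 4.41 to 5.17 with a median of 4.67. The lowest libraries were 2 of the young group and the highest 2 of the old anti-miR-mix group (replicates 2 and 4), and all 3 groups overlapped. Groups that did not overlap were found for 2.42% of all tested genes in old anti-miR-mix against young. Old anti-miR-mix mice had 1.37 times the young level (log2 fold change 0.46 ± 0.14 SE; edgeR adjusted p = 0.0498), at the edge of the threshold. The old control level lay between, with log2 fold changes of 0.25 ± 0.14 SE against young (edgeR adjusted p = 0.368) and 0.21 ± 0.14 SE for old anti-miR-mix against old control (edgeR adjusted p = 0.632).

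The Vwf call was not stable. It was kept in 4 of 13 fits that left out 1 library, with adjusted p between 0.0314 and 0.123, the highest without young replicate 4 (log2 fold change 0.38). DESeq2 kept it (adjusted p = 0.0186), and with processing group as a factor the log2 fold change was 0.50 and the adjusted p 0.0508. Within processing groups the difference was −0.13, 0.43, 0.84 and 0.27 for numbers 1 to 4, so it was below 0 in 1 of 4.

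**Figure D2:**
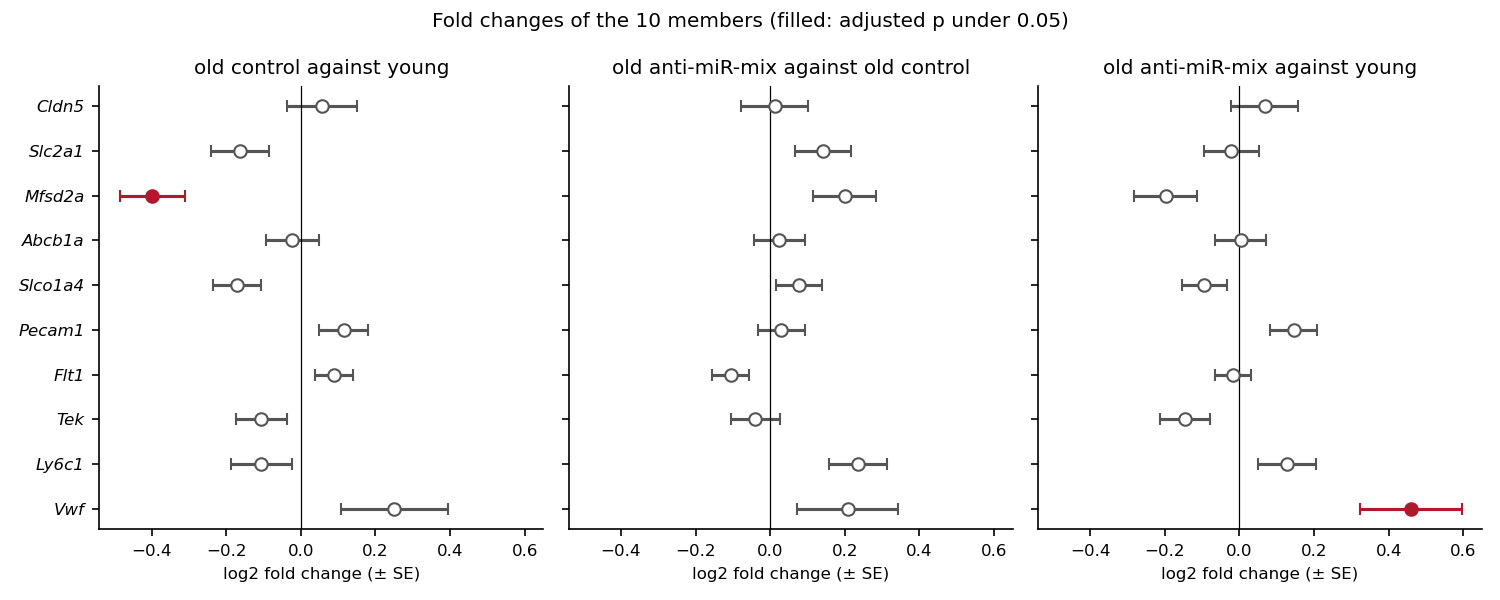
Log2 fold changes of the 10 members (x axis; points are edgeR estimates, bars ± SE) in the 3 comparisons; filled red points passed an adjusted p of 0.05. Mfsd2a (−0.40 with age) and Vwf (0.46 in old anti-miR-mix against young) are the points that passed, and no member passed between the old groups.

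**Figure D3:**
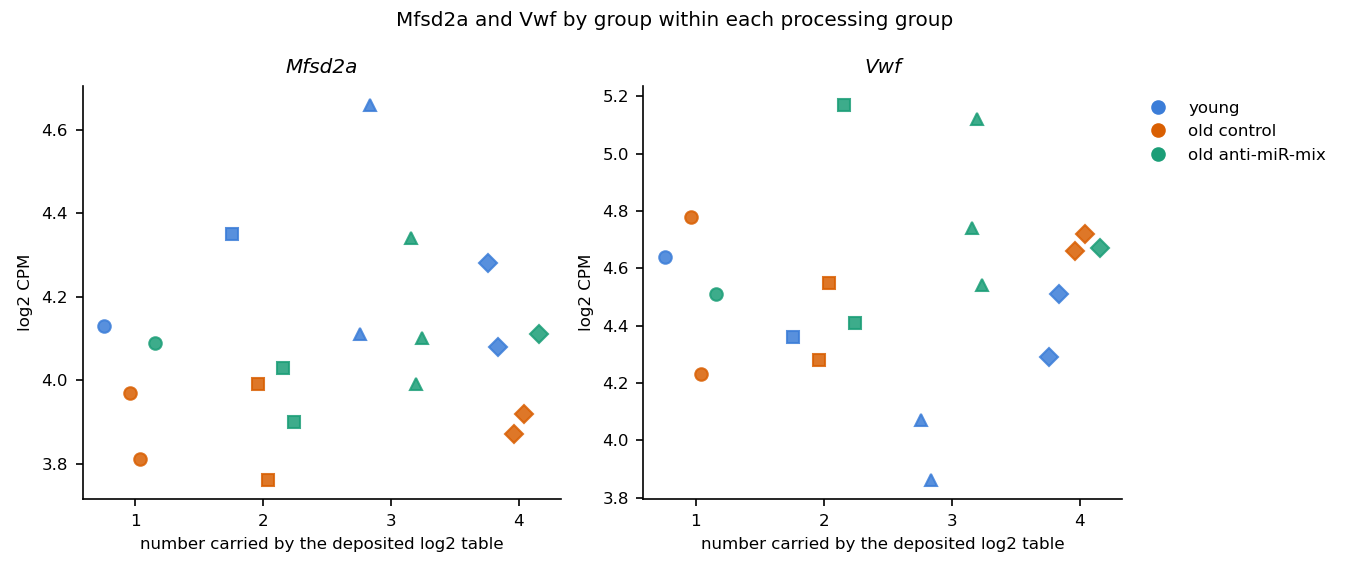
Log2 CPM (y axis) of Mfsd2a and Vwf by the whole number that the deposited log2 table carries for each library (x axis; a marker shape for each number); colours are the groups and points are libraries. Mfsd2a lies lower in old control than in young libraries on average within numbers 1, 2 and 4, number 3 holds no old control library, and for Vwf the difference between old anti-miR-mix and young libraries is widest within number 3 (0.84).

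Abcb1a too shares sequence with relatives: 22.5% of its 50-base stretches occur in other transcripts, mostly of Abcb1b, the second mouse gene for P-glycoprotein (16.3%). Abcb1b was far lower, at 0.575 ± 0.064 RPKM (SD, n = 6) in young mice against 5.03 ± 0.555 for Abcb1a. Unlike Abcb1a it rose in old anti-miR-mix against young (log2 fold change 0.43 ± 0.09 SE; edgeR adjusted p = 0.00375), a call kept in 13 of 13 fits without 1 library. The difference between the responses of Abcb1a and Abcb1b was not tested. For Slco1a4 the shared portion was 1.61%, and for Slc2a1 and Pecam1 it was 1.54% each. The stretch of Slc2a1 lies opposite the antisense gene Gm12868, whose reads (3 to 14 a library) cannot be told apart from it without strand. Cldn5, Mfsd2a and Tek shared no 50-base stretch with another gene. The relative Slco1a5 held 2 to 52 reads a library and Slco1a6 was not tested for want of reads.

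Across the 19 libraries, with group means removed, the members varied together only in part. The median Pearson's r of the 45 pairs was 0.24, and 40 pairs were above 0. The points share libraries and depth scaling, and these values are descriptions. The closest pairs were Tek with Vwf (r = 0.72) and Abcb1a with Slco1a4 (r = 0.69). The r of Slc2a1 was 0.58 with Mfsd2a, 0.55 with Ly6c1 and 0.49 with Pecam1. Mfsd2a was below 0 with Vwf (r = −0.29) and with Abcb1a (r = −0.20). Its mean r with the other 9 members was 0.09, the lowest of the 10, and that of Tek was 0.45, the highest.

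**Figure D4:**
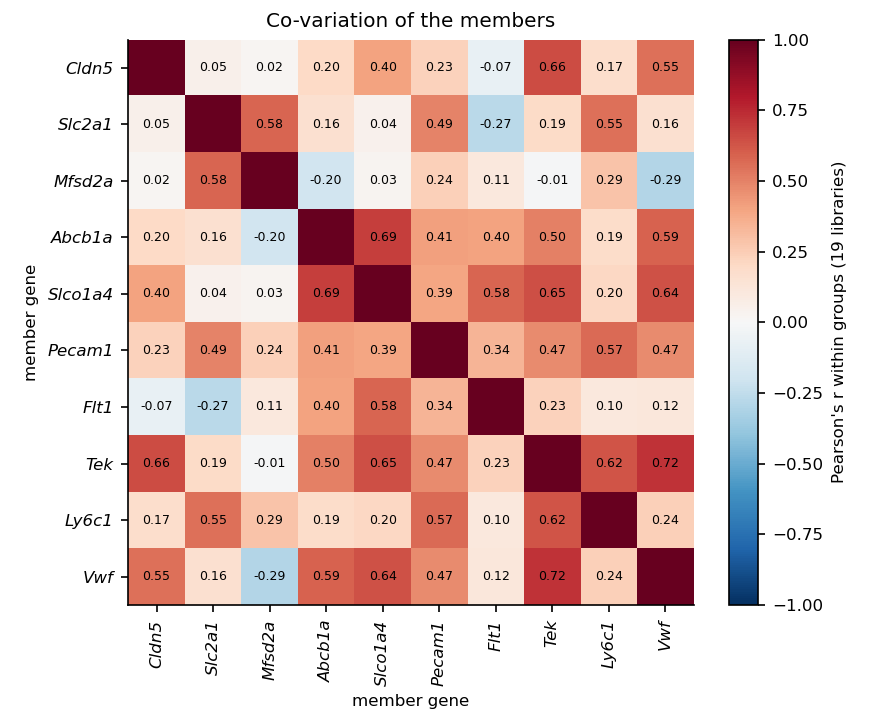
Pearson's r between members across 19 libraries after group means were removed (both axes are member genes; colour and printed number give r). Of the 45 pairs 13 lie above 0.5, the highest being Tek with Vwf (0.72), and the highest value of Mfsd2a is with Slc2a1 (0.58).

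The genes most like the members in pattern were sought by their correlation with the mean of the 10 standardised members over 19 libraries, without removing group means. They were Pxmp2, a peroxisomal membrane protein (r = 0.81), the ferroxidase Heph (0.77), the membrane progestin receptor gene Paqr5 (0.77), the endothelial adhesion gene Icam2 (0.73) and the junctional adhesion gene Jam2 (0.73). These genes were picked as the highest of all other tested genes, so the size of r does not show a link. Pxmp2, Heph and Paqr5 are in none of the gene lists, and no test was made. Single libraries differed in the members as a set within groups. The mean standardised level was highest in old anti-miR-mix replicate 2 (1.16) and lowest in old anti-miR-mix replicate 7 (−0.98), so the widest range was inside the treated group.

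The list counts from here on can be set beside the shares of all tested genes. Those past the threshold were 2.67% with age, 0.669% between the old groups and 6.2% in old anti-miR-mix against young. At an unadjusted p under 0.05 they were 18.1%, 10.5% and 19.6%, and the shares above 0 were 52.2%, 50.2% and 51.0%. The other 28 pan-endothelial genes gave a similar picture to the members. With age, 0 rose and 2 fell, the surface protein gene Itm2a (log2 fold change −0.31 ± 0.08 SE; edgeR adjusted p = 0.0304) and the receptor gene Tie1 (−0.31 ± 0.08 SE; edgeR adjusted p = 0.035), which is the partner of Tek. At an unadjusted p under 0.05, 2 of the 28 were higher and 4 lower with age. The median of the 28 was −0.03 with age, with 13 above 0 and 15 below. Their summed level was 423 to 482 CPM in young and 433 to 447 CPM in old control libraries. With the inhibitors 0 of 28 passed in edgeR or DESeq2, and 0 had an unadjusted p under 0.05. Itm2a was also lower in old anti-miR-mix against young (−0.28 ± 0.07 SE; edgeR adjusted p = 0.0254). The Tie1 and Itm2a calls with age were kept in 5 and 6 of 12 fits without 1 library.

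Among 20 other barrier transporters and receptors, 2 fell and 1 rose with age in edgeR. The large neutral amino acid transporter gene Slc7a5 fell (log2 fold change −0.32 ± 0.06 SE; edgeR adjusted p = 0.00743), in 12 of 12 fits without 1 library, and the efflux pump gene Abcg2 fell (−0.26 ± 0.07 SE; edgeR adjusted p = 0.0418), in 2 of 12. The insulin receptor gene Insr rose (0.10 ± 0.03 SE; edgeR adjusted p = 0.0453), in 1 of 12. DESeq2 called 5 of 20 with age, adding Slc7a1 (lower) and Slc6a6 (higher). At an unadjusted p under 0.05, 7 were lower and 3 higher with age, against 18.1% of all tested genes in either direction. In old anti-miR-mix against young 3 were lower and 1 was higher. Slc7a5 (−0.31 ± 0.06 SE), the transferrin receptor gene Tfrc (−0.23 ± 0.06 SE) and the cationic amino acid transporter gene Slc7a1 (−0.19 ± 0.04 SE) were lower and the glutamine transporter gene Slc38a3 was higher (0.17 ± 0.05 SE). DESeq2 called 5 of 20 in that comparison, adding Slc39a10 (lower), and 7 had an unadjusted p under 0.05 (19.6% of all tested genes). Several of these genes are also expressed by neurons or glia. Between the old groups 0 of 20 passed in edgeR or DESeq2, with 1 at an unadjusted p under 0.05.

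In the Wnt and beta-catenin barrier list, 1 of 19 genes fell with age in edgeR, the receptor gene Fzd4 through which norrin and Wnt ligands signal in endothelium (−0.29 ± 0.05 SE; edgeR adjusted p = 0.00295). Its old control libraries lay at 4.00 to 4.12 log2 CPM, all under the young libraries at 4.29 to 4.46. The call was kept in 12 of 12 fits without 1 library and with processing group as a factor (edgeR adjusted p = 0.00973). Fzd4 was also the gene of this list that edgeR called lower in old anti-miR-mix against young (−0.26 ± 0.05 SE; edgeR adjusted p = 0.00127). DESeq2 called 2 of 19 lower with age, adding Apcdd1, and 2 lower in old anti-miR-mix against young, adding Nkd1. At an unadjusted p under 0.05 there were 5 with age and 4 in old anti-miR-mix against young. Between the old groups 0 of 19 passed in either tool, with 1 at an unadjusted p under 0.05. Of 13 genes of the vascular endothelial growth factor pathway, which includes ligands of Flt1, 0 passed in any comparison in edgeR or DESeq2, and at an unadjusted p under 0.05 there were 2 with age and 0 in the others. The ligand gene Vegfa had a log2 fold change of 0.09 ± 0.05 SE in old anti-miR-mix against young. Of 8 tested genes of the angiopoietin and Tie pathway, 1 passed with age (Tie1, given above) and 0 in the others in either tool, with 2 in each at an unadjusted p under 0.05.

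The tight and adherens junction list, the neighbours of Cldn5, had 0 of 13 genes past the threshold with age in edgeR or DESeq2. With age 11 were below 0, and 5 were lower at an unadjusted p under 0.05 (18.1% of all tested genes in either direction). The junctional adhesion gene F11r was higher in old anti-miR-mix against young (0.41 ± 0.08 SE; edgeR adjusted p = 0.00149), in 13 of 13 fits without 1 library. Between the old groups 0 of 13 passed in edgeR, with 3 at an unadjusted p under 0.05, and DESeq2 called F11r (log2 fold change 0.27, adjusted p = 0.0424). Of 8 caveola and vesicle genes 1 rose in old anti-miR-mix against young, Ehd4 (0.26 ± 0.08 SE; edgeR adjusted p = 0.0486), in 3 of 13 fits. In either tool 0 passed in the others, with 0 at an unadjusted p under 0.05 with age and 3 between the old groups. Among 12 tested partners of Vwf in haemostasis, the platelet integrin gene Itga2b was higher with age (0.44 ± 0.11 SE; edgeR adjusted p = 0.0383) and in old anti-miR-mix against young (0.39 ± 0.11 SE; edgeR adjusted p = 0.033). These calls were kept in 4 of 12 and 6 of 13 fits without 1 library, and Itga2b held 37 to 92 reads a library. Of 5 red cell markers 0 passed in any comparison in edgeR or DESeq2, and 0 had an unadjusted p under 0.05.

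Genes of endothelial activation and leukocyte adhesion were the vascular group with the highest median in old anti-miR-mix against young (0.53 over 9 tested genes, with 8 above 0). The tumour necrosis factor receptor gene Tnfrsf1a (0.57 ± 0.10 SE; edgeR adjusted p = 0.000987), the adhesion gene Icam1 (0.74 ± 0.16 SE; edgeR adjusted p = 0.00586) and the secreted glycoprotein gene Lrg1 (0.71 ± 0.21 SE; edgeR adjusted p = 0.0454) rose. The first 2 were kept in 13 of 13 fits without 1 library and Lrg1, with 12 to 57 reads a library, in 2 of 13. Other genes of the list moved less. Vcam1 averaged 5.145 log2 CPM in young and 5.21 in old anti-miR-mix libraries, and Ackr1 averaged 4.585 and 4.516. The selectin genes Selp and Sele were not tested for want of reads. Glia express some of the list genes as well, and the cell type behind these values was not tested. With processing group as a factor Lrg1 was no longer called (edgeR adjusted p = 0.0666), nor with age were Tie1, Abcg2, Insr, Itga2b and Edn1 (edgeR adjusted p between 0.0544 and 0.0923). Between the old groups 0 of 9 passed in edgeR or DESeq2, with 3 at an unadjusted p under 0.05, 9 above 0 and a median of 0.34. With age 0 of 9 passed in either tool, with 1 at an unadjusted p under 0.05. Of 10 arterial genes, 1 rose with age (the endothelin gene Edn1, 0.48 ± 0.12 SE; edgeR adjusted p = 0.0341, in 4 of 12 fits), and of 8 venous genes 0 passed in any comparison in either tool, with at most 1 at an unadjusted p under 0.05.

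**Figure D5:**
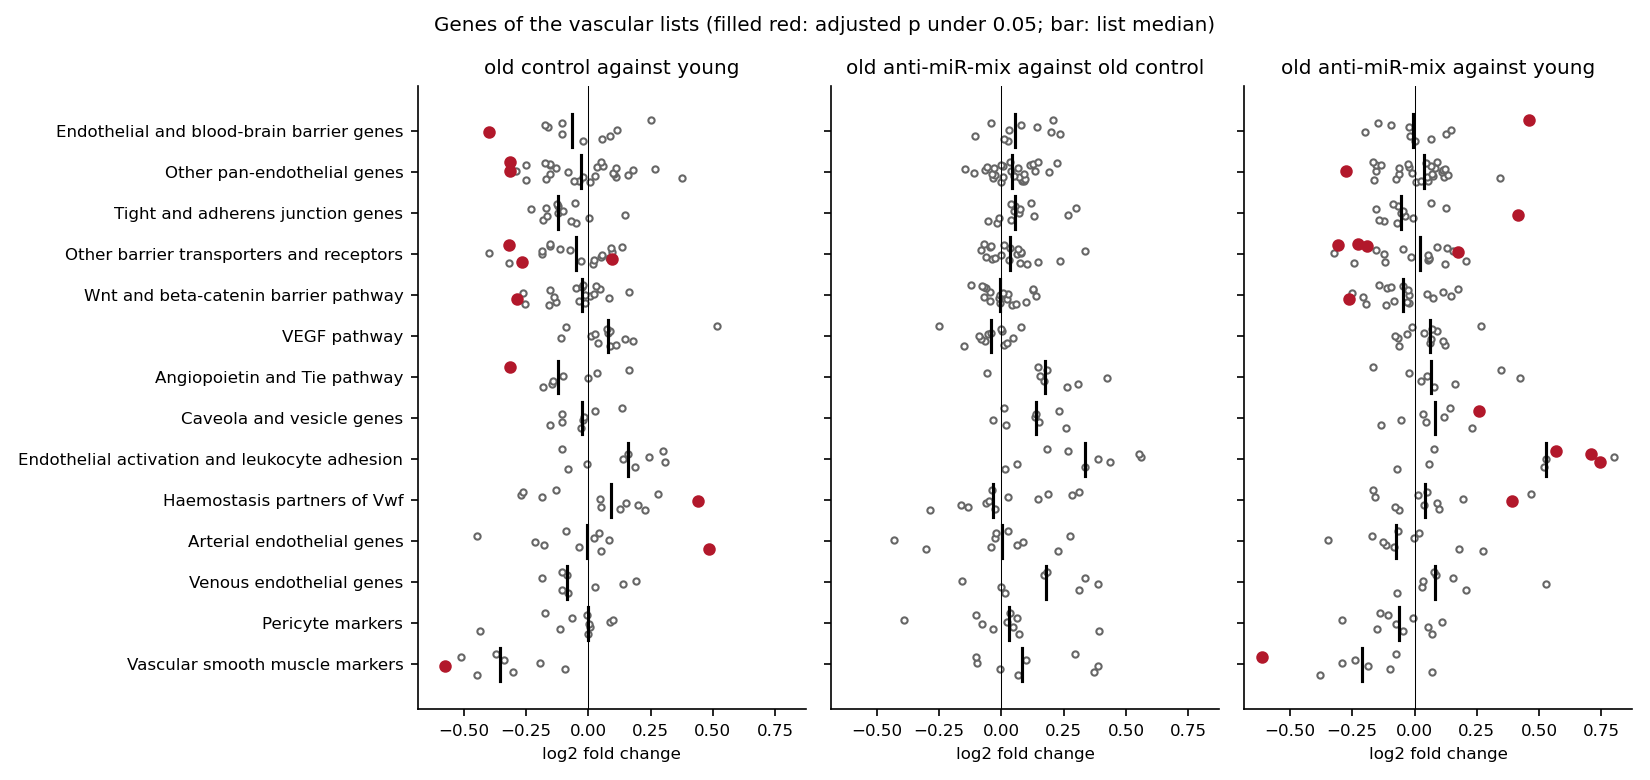
Log2 fold changes (x axis) of the tested genes of 14 vascular lists (y axis) in the 3 comparisons; open points did not pass, filled red points passed an adjusted p of 0.05, and the vertical bars are list medians. Between the old groups no gene of these lists passed in edgeR, and in old anti-miR-mix against young the activation list has the highest median (0.53).

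The mural cells that surround the endothelium were also measured. Of 10 pericyte markers 0 passed in any comparison in edgeR or DESeq2 (at most 2 at an unadjusted p under 0.05), with summed levels of 242 to 276 CPM in young, 246 to 252 in old control and 233 to 259 in old anti-miR-mix libraries. Of 8 vascular smooth muscle markers, all 8 were below 0 with age (median −0.35), and 1 fell in edgeR, the contractile-apparatus gene Lmod1 (−0.57 ± 0.12 SE; edgeR adjusted p = 0.0108). DESeq2 called 2 lower with age, adding Myl9, and 5 were lower at an unadjusted p under 0.05. In old anti-miR-mix against young 1 was lower, Pln (−0.61 ± 0.16 SE; edgeR adjusted p = 0.02). Pln held few reads, 35 to 49 in young and 22 to 43 in old anti-miR-mix libraries. Of its exon bases 59.6% lie opposite the gene Gm47644, and the strand setting is not given. The summed smooth muscle level was 31.3 to 48.5 CPM in young, 26.8 to 34.4 in old control and 26.7 to 39.5 in old anti-miR-mix libraries. No marker of either list was at 0 in all libraries, and their part in the member values was not tested.

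Markers of other cell types were called as well, and their values stand beside those of the members. Microglia markers were higher in old groups, 2 of 10 with age, 3 of 10 with the inhibitors (Csf1r and C1qa among them) and 9 of 10 in old anti-miR-mix against young. Their sum was 426 to 570 CPM in young, 537 to 667 in old control and 635 to 852 in old anti-miR-mix libraries. In the old groups 0 of 10 oligodendrocyte markers differed past the threshold in edgeR, with 10 above 0 with the inhibitors and 7 higher at an unadjusted p under 0.05, and DESeq2 called Cldn11 higher (adjusted p = 0.0142). These markers fell with age in 5 of 10, with sums of 7410 to 11700 CPM in young, 6540 to 7790 in old control and 6660 to 9840 in old anti-miR-mix libraries. Of 10 border macrophage and monocyte markers 1, Siglec1, rose with the inhibitors, and 3 rose against young, with sums of 6.37 to 15.8, 7.33 to 10.7 and 8.95 to 22.6 CPM. With processing group as a factor Siglec1, C1qa and Csf1r were no longer called between the old groups (edgeR adjusted p = 0.132, 0.179 and 0.203). Of 10 astrocyte markers 1 fell with age and 2 rose in old anti-miR-mix against young, of 10 neuronal markers 1 was lower there (Wfs1; 3 in DESeq2), and of 10 fibroblast markers 1 was higher there (Igfbp2). Between the old groups 0 of these 3 lists passed in edgeR. There 10 of 10 neuronal markers were below 0 (median −0.07), and 8 of 10 astrocyte markers were above 0 (median 0.09). Of the fibroblast markers 9 of 10 were above 0 there (median 0.49), 3 at an unadjusted p under 0.05, and DESeq2 called 1 higher. Of 9 tested choroid plexus markers 0 passed in edgeR or DESeq2, with 4 at an unadjusted p under 0.05 with age, and their sum reached 91.9 CPM in old control and 113 CPM in old anti-miR-mix libraries against at most 33.4 CPM in young libraries. No marker of these lists was at 0 in all libraries, and their part in the member values was not tested.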

How the data were processed

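Polyadenylated RNA of microdissected CA1 was made into TruSeq libraries and sequenced as single-end reads of 50 bases, 19 libraries in all. The authors deposited raw counts per gene, made per the submitters' processing notes with FastQC 0.11.5, STAR 2.5.2b and featureCounts (Subread 1.5.1) on mm10. Strand and multi-mapping settings are not given in the sources used here. They also deposited a log2 table, in which each value is log2 of CPM plus 1 minus a gene's slope times a whole number per library. That log2 table served only as the input of 1 alternative and for the processing group.

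Groups followed the labels' descriptions, since the titles of control libraries also name the inhibitor mix. Genes that reached 5 reads in 50% or more of the libraries were tested with edgeR 4.0.16 (R 4.3.3; TMM, quasi-likelihood, all 3 groups in 1 fit, Benjamini-Hochberg over 19286 genes, threshold 0.05). SE is the log2 fold change divided by the root of F. Log2 CPM used a prior count of 2. Alternatives used DESeq2 1.42.0, limma 3.58.1, other scalings, filters, covariates and library sets. The test was run on simulated counts with the same spread for every gene and with larger changes than those of the members. That check does not cover the spread of these libraries or changes of the members' size. The 10 members and the gene lists were chosen with earlier results of these data known, so the list counts are not independent evidence. All members are named, and from each list at most 4 genes a direction past the threshold, by size of change. Some named genes were called by DESeq2 alone, and some did not pass. Of the marker lists, 1 gene is not reported here by name. Sequences are from RefSeq and GENCODE M21 (GRCm38). Replicate numbers were not used to pair libraries (closing section). Depth limits precision only through counting error for members, each with over 300 reads a library.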

Additional observations from a re-analysis of the deposited data

How the results depend on the processing

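The Mfsd2a decrease with age kept its direction in all alternatives run (log2 fold change −0.44 to −0.30 in fits without 1 library) but lost the call with processing group as a factor, alone or with old control replicates 5 and 6 counted as 1 library. The number of called members with age was then 0 and 0, and it was 2 when the compared groups were fitted alone (Slco1a4 added). The Vwf call in old anti-miR-mix against young was lost, leaving 0 members, under RLE size factors, library totals alone, compared groups alone, limma on the deposited log2 values, old control 5 and 6 as 1 library, processing group as a factor, both of these together, and the processing group number as a linear term. Fits without 1 library gave 0 to 1 called members there. The cause was not tested.

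Over all genes, calls with age numbered 514, against 914 with DESeq2, 772 with the compared groups alone, 323 without the filter, 313 with old control 5 and 6 as 1 library, 225 with processing group added, and 214 (without young replicate 4) to 746 (without young replicate 2) without 1 library. Between the old groups they numbered 129, against 267 with DESeq2, 55 with the compared groups alone, 33 with old control 5 and 6 as 1 library, 9 with processing group as a factor, 6 with both, and 24 to 247 without 1 library. No alternative run moved the 1196 calls of old anti-miR-mix against young by over 1.5 times.

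Fold changes near 0 changed sign. For Abcb1a in old anti-miR-mix against young they were −0.00216 with DESeq2, −0.00215 with RLE, −0.00153 with the compared groups alone, −0.000486 without the filter and −0.03 to 0.06 without 1 library. Without 1 library, Abcb1a ranged from −0.05 to 0.03 with age and from −0.01 to 0.05 between the old groups, where Cldn5 ranged from −0.02 to 0.06, Pecam1 from −0.01 to 0.06 and Tek from −0.08 to 0.000751. In old anti-miR-mix against young, Slc2a1 ranged from −0.05 to 0.04 and Flt1 from −0.04 to 0.02.

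Libraries with the same replicate number deviated together weakly if at all (r from −0.17 to 0.21 over 18 pairs, 6 over 0.1). Of 18 libraries, 2 correlated best with their own number in both other groups. These values do not settle whether the numbers pair libraries. With the replicate number as a block, calls between the old groups numbered 249, against 129 without it. No member call changed, and Slc2a1 in old anti-miR-mix against young was 0.01. Counting error is small at the members' read counts, and differences of the size of the SEs given are not detectable with these groups.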
